A study of Capra hircus with 6 samples.

Results

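The regions described here lie where the ends of different protein-coding genes crowd together on the goat genome. Each is a listed region on a numbered chromosome whose centre lies within 1000 bp of an end of at least 2 different protein-coding genes, and 559 of the 30714 regions in the authors' deposited table met that rule, or 559 of the 29978 on the numbered chromosomes. They are called shared regions below. The rule used position alone, although every region of the table had already been listed by the authors at a p under 0.001. The table compares ATAC-seq libraries of mammary epithelial cells from 3 lactation samples (replicates 1, 2 and 5) with 3 dry period samples (replicates 1, 2 and 3) of the goat, *Capra hircus*. ATAC-seq marks open chromatin by the cuts of the Tn5 transposase. The dry period is the time without milking between lactations, and neither group carries a stated genotype, drug or age. Whether the samples came from separate animals is not said in the labels, so the spread behind the authors' p-values may be technical only.

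In mammals many genes stand head to head, with their transcription starts so close that a single stretch of open, nucleosome-free DNA, called a bidirectional promoter, serves both. Such pairs often encode housekeeping proteins of the mitochondrion, of translation and of DNA repair. Other genes run tail to tail, with their polyadenylation sites facing each other, or head to tail, where the end of one gene lies beside the start of the next. Strand is missing from the gene table, so these arrangements could not be told apart in goat, and the shared regions are candidates for bidirectional promoters and crowded gene ends alike. Where a pair is called head to head below, that is background knowledge from humans.

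Region names in the table fall into 2 sets with fold changes above 1 throughout, taken here as the regions more open in 1 period each. Which set belongs to lactation and which to the dry period is stated in neither the table nor the labels, so the direction of each fold change is given by set. A value given for a gene pair with no other unit is the authors' linear fold change. Of the 559 shared regions, 505 were in set 1 and 54 in set 2. The set 1 share was thus 90.3% (95% Wilson interval 87.6% to 92.5%, counting error only). It was 89.5% of the 3968 regions at an end of exactly 1 gene and 74.4% of all 29978 regions. These shares were not tested against each other, since regions of 1 table are not replicates.

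By the authors' false discovery rate (FDR, a Benjamini-Hochberg adjusted p), 161 of the 559 shared regions (28.8%) passed 0.05, beside 27.8% of all regions on the numbered chromosomes. In set 1, 157 of 505 passed (31.1%), beside 34.2% of all set 1 regions. In set 2, 4 of 54 passed (7.41%), beside 9.24% of all set 2 regions. The share past the threshold was near the background in each set. Most shared regions therefore carry a listed p and fold change but no FDR call, and set 2 in particular rests on 4 calls. The FDR for a given p differed by set: a set 2 shared region had 0.238, while a set 1 shared region with a larger p had 0.0565. Under a stricter FDR of 0.01 there were 65 of 559 (background 13.1%), 62 of them in set 1 (background 16.1%) and 3 in set 2 (background 4.62%).

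Listed regions were packed more densely where gene ends crowd. Sequence within 1000 bp of the ends of at least 2 genes came to 5.07 Mb and held 99.5 set 1 centres per Mb (95% exact Poisson interval 91.0 to 108.6, counting error only). Sequence near an end of exactly 1 gene, 64.2 Mb, held 55.3 per Mb (53.5 to 57.1), and the rest of the chromosomes 7.63 per Mb. For set 2 the densities were 10.6 per Mb at shared ends (8.00 to 13.9), 6.51 at single ends (5.90 to 7.16) and 3.01 elsewhere. Shared ends thus held 1.80 times the set 1 density of single ends and 1.64 times the set 2 density. Relative to sequence away from gene ends the ratio was 13.0 in set 1 and 3.54 in set 2. Open regions that were not listed are unknown. These densities therefore do not show how often an open region differed between the periods.

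**Figure D1:**
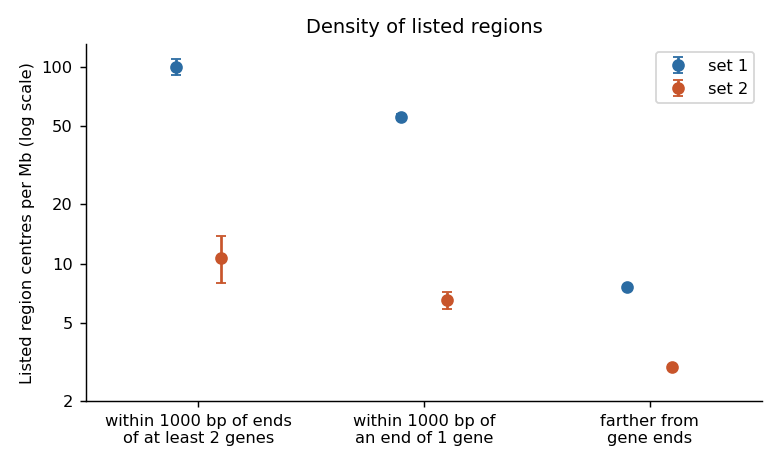
Listed region centres per Mb of sequence (log scale) at ends of at least 2 genes, at an end of 1 gene and farther from gene ends, for set 1 and set 2; bars are 95% exact Poisson intervals and cover counting error only. Both sets are densest at shared ends, at 99.5 and 10.6 per Mb. The density of all open regions, listed or not, is unknown.

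The fold changes of set 2 shared regions were small. Their median in the authors' deposited table was 1.40 (interquartile range 1.32 to 1.93), beside 2.21 (1.49 to 3.49) for set 2 regions at an end of 1 gene and 3.59 (2.67 to 4.98) for all set 2 regions. A fold change under 1.5 was found for 33 of the 54 (61.1%, 95% Wilson interval 47.8% to 73.0%), for 109 of 418 at single ends (26.1%, 22.1% to 30.5%) and for 317 of all 7664 set 2 regions (4.14%). Only 5 of the 54 passed a fold change of 3, as did 65.7% of all set 2 regions. In set 1 the shared regions stood close to the single ends: the median was 1.97 (1.66 to 2.51) in the authors' deposited table, beside 2.01 (1.68 to 2.65) at single ends and 2.39 (1.87 to 3.23) over all set 1 regions. The share under a fold change of 1.5 was 12.1% of the 505, 11.1% at single ends and 5.80% of all set 1 regions. Reads per region are unknown, and their part in these small folds was not tested.

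**Figure D2:**
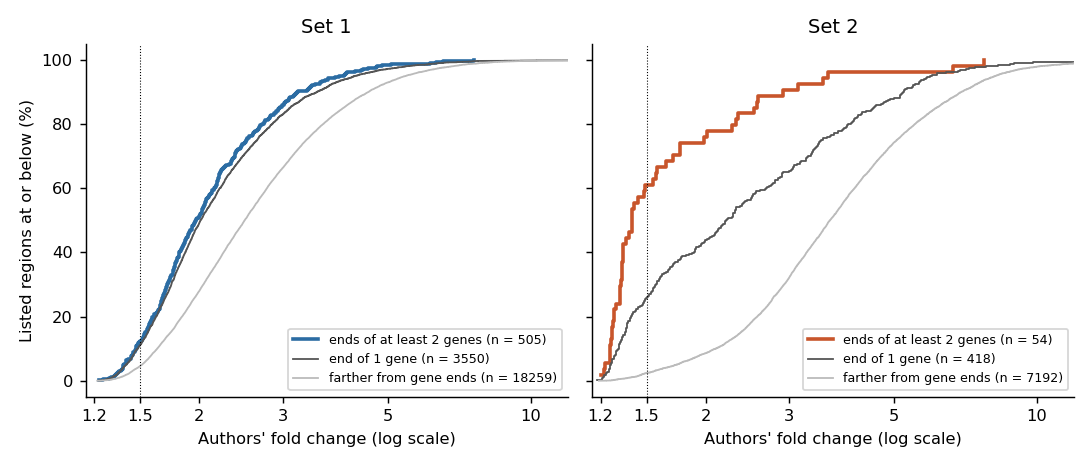
Cumulative share of listed regions (%) against the authors' fold change (log scale, drawn up to 12), for regions at ends of at least 2 genes, at an end of 1 gene and farther away; the dotted line is a fold change of 1.5. In set 2 the shared regions reach 61.1% at the dotted line and single-end regions 26.1%, while in set 1 these curves run together at 12.1% and 11.1%.

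Among listed regions within 1000 bp of a gene end, set 2 regions sat closer to it than set 1 regions, at shared and at single ends alike. Distance is what the rule used, so it is given as a description: the centre lay a median of 190 bp from the nearest end in set 2 (interquartile range 94.8 to 378 bp) and 394.5 bp in set 1 (201.5 to 606.5 bp). At single ends the median distance was 369.5 bp for set 2 regions and 561.5 bp for set 1 regions. Within 250 bp of an end lay 31 of 54 set 2 regions (57.4%) and 161 of 505 set 1 regions (31.9%), beside 36.6% and 19.4% at single ends. Of those 31, 25 had a fold change under 1.5, and their median fold by the authors' deposited table was 1.33. Set 2 regions as close to the end of a single gene had a median of 1.64, with 67 of 153 under 1.5. Within 100 bp of an end, 13 of 14 shared set 2 regions were under 1.5, beside 34 of 71 at single ends. Beyond 250 bp the median of the 23 shared set 2 regions was 1.76, and that of 265 at single ends 2.51. For set 1 shared regions the median was 1.93 within 250 bp and 1.97 beyond it, while a fold change under 1.5 was found for 34 of 161 within that distance and for 27 of 344 beyond it.

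**Figure D3:**
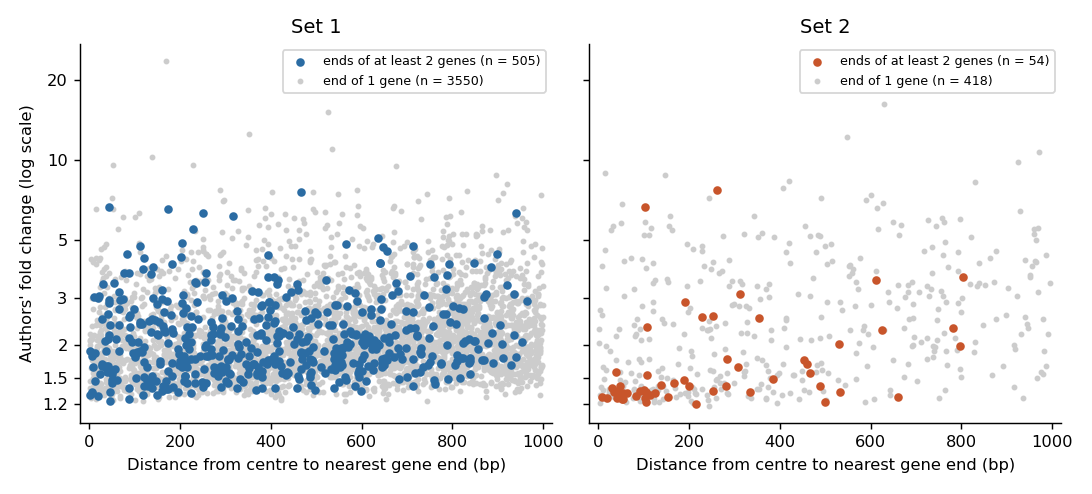
Authors' fold change (log scale) against the distance in bp from the region's centre to the nearest gene end, for shared regions (coloured) and regions at an end of 1 gene (grey) of each set. Set 2 shared regions gather at the lower left, where 25 of 31 within 250 bp have a fold change under 1.5; set 1 shared regions spread over the whole range.

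Most shared regions belonged to genes standing side by side. In 457 of the 559 the nearest pair of genes did not overlap, in 98 the genes overlapped in part, and in 4 one gene lay within the other. The gap between side by side genes had a median of 197 bp for the 415 set 1 regions and 125.5 bp for the 42 set 2 regions. It was at most 500 bp for 300 of the 415 (72.3%) and 36 of the 42 (85.7%). The region's centre was in the gap itself for 109 set 1 and 8 set 2 regions and inside one of the genes otherwise. Any base of the region reached the gap in 151 of 415 set 1 regions (36.4%, 95% Wilson interval 31.9% to 41.1%) and 20 of 42 set 2 regions (47.6%, 33.4% to 62.3%). From the middle of the gap the centre lay a median of 421 bp in set 1 and 196 bp in set 2.

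Set 2 fold changes were compared by the arrangement of the genes. In the authors' deposited table the median fold change was 1.39 for the 42 side by side set 2 regions and 2.13 for the 12 at partly overlapping genes. Of these 12, 3 were at *LRIG1* and *SLC25A26*, and without that pair, left out after its values were seen, the median of the other 9 was 1.57. By gap size it was 1.32 at gaps up to 100 bp (14 regions), 1.37 from there to 250 bp (14) and 1.38 from 250 to 500 bp (8). Wider gaps held 6 set 2 regions, 4 of them at 500 to 1000 bp with a median of 2.03 and 2 beyond. For set 1 the median ran between 1.83 and 2.05 over the same gap sizes, with no order by gap. The number of set 2 regions per gap size is too small to place a limit.

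Close gene pairs are common in this annotation, and few of them held a listed region. Of 19063 protein-coding genes on the numbered chromosomes, 6087 had an end within 2000 bp of an end of another, in 3757 pairs. A shared region was listed at 511 of these pairs (13.6%, 95% Wilson interval 12.5% to 14.7%), in set 1 at 462 and in set 2 at 52. A region at an FDR under 0.05 was listed at 162 pairs (4.31%). The share with a set 1 region was 16.1% of 831 pairs whose closest ends were up to 100 bp apart, 18.3% of 698 pairs at 100 to 250 bp, 13.4% at 250 to 500 bp, 9.87% at 500 to 1000 bp and 6.13% at 1000 to 2000 bp. For set 2 the shares in the same order were 1.93%, 2.72%, 1.58%, 0.987% and 0.198%. The stretch that lies within 1000 bp of both ends shrinks as they move apart, so the fall toward wide pairs is partly built into the rule. The genes at shared regions were short, with a median length of 9549 bp, beside 13537 bp for genes in a close pair and 17760 bp for all protein-coding genes.

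**Figure D4:**
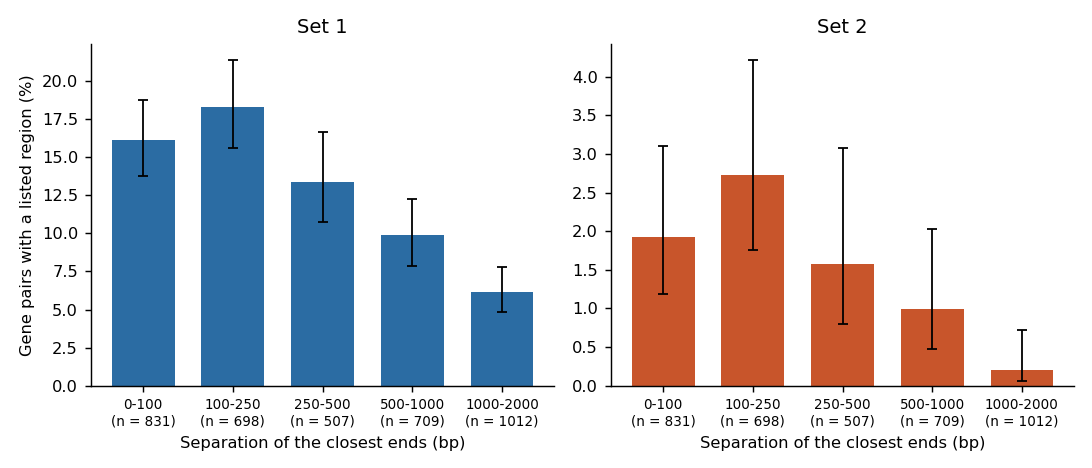
Share of close gene pairs (%) with a listed shared region, by the separation of their closest ends in bp, for set 1 (left) and set 2 (right, on its own scale); n is the number of pairs and bars are 95% Wilson intervals, counting error only. Both sets peak at a separation of 100 to 250 bp, at 18.3% and 2.72%.

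Some gene pairs carried several listed regions. The 559 regions lay at 493 different sets of genes, of which 432 had 1 region, 56 had 2 and 5 had 3. In 58 of the 61 with more than 1 region, all regions were in the same set. With 90.3% of all shared regions in set 1, agreement in most of the 61 would follow from that share alone. Some of these regions are also close neighbours, such as 1300901 to 1301600 and 1301701 to 1301900 at *COL4A1* and *COL4A2*. Of 53 side by side pairs with more than 1 region, 40 had regions on both sides of the middle of the gap. At 5 sets of genes more than 1 region passed an FDR of 0.05, all in set 1. They were *COL4A1* and *COL4A2*, *NOL8* and *CENPP*, *DNASE2* and *MAST1*, *XPC* and *TMEM43*, and *HRAS* with the unnamed gene LOC108634208; *DNASE2*, *MAST1* and *HRAS* are named because of this count, after their values were seen.

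The 3 pairs with regions of both sets are named for that reason too, after their values were seen. In each of them the set 2 region lay nearer the gene ends and had the smaller fold change. At *TRMT1L*, a homologue of tRNA methyltransferases, and *SWT1* on chromosome 16, the set 2 region (64782101 to 64782300) was centred in the 113 bp gap, and the authors' deposited table gave 1.25-fold (FDR = 0.55). The set 1 region of that pair (64782801 to 64783000) lay 645.5 bp from the nearest end and the authors' deposited table gave 1.71-fold (FDR = 0.112). At *DDX24*, a nucleolar RNA helicase, and LOC102170640 on chromosome 21, the set 2 centre was 114.5 bp from an end and the fold by the authors' deposited table was 1.29 (FDR = 0.455). The set 1 centre there was 714.5 bp away, and the authors' deposited table gave 2.67-fold (FDR = 0.0357). At LOC102184685 and *HS2ST1*, an enzyme of heparan sulfate synthesis, on chromosome 3, the distances were 53.5 bp in set 2 and 409.5 bp in set 1, with fold changes in the authors' deposited table of 1.32 and 1.69, neither past an FDR of 0.05. With 3 pairs this is a description and was not tested.

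The 4 set 2 shared regions that passed an FDR of 0.05 lay at 4 pairs of side by side genes. *SUN3*, a nuclear envelope protein of sperm cells, and C4H7orf57 share a region on chromosome 4 at 112872401 to 112872800. Its centre lay 101.5 bp from the nearer end, and it was 1.36-fold in the authors' deposited table (FDR = 0.000338). *SPHK1*, the kinase that makes sphingosine 1-phosphate, and *UBE2O*, a ubiquitin-conjugating enzyme, stand 886 bp apart on chromosome 19. The region between them, at 54573701 to 54574100, had the largest fold change of the 4 in the authors' deposited table, 2.56 (FDR = 0.00291). *SKA2*, a part of the spindle and kinetochore complex, and *PRR11*, a gene of the cell cycle, form a head to head pair in humans. Their set 2 region on chromosome 19 at 9755601 to 9755900 was 1.40-fold in the authors' deposited table (FDR = 0.00743), with its centre 47.5 bp from an end. *TIMM21*, of the mitochondrial import machinery, and the F-box gene *FBXO15* share a region on chromosome 24 at 4261901 to 4262200, where the authors' deposited table gave 1.40 (FDR = 0.035). So 3 of the 4 calls had a fold change under 1.5, a size found in 15 of all 708 set 2 regions at that FDR.

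None of the other 50 set 2 shared regions passed an FDR of 0.05, and their values are given as listed. *TSSK3*, a kinase of the testis, *FAM229A* and *BSDC1* were the only set of 3 genes in set 2, and the authors' deposited table gave 2.53-fold (FDR = 0.0949). *B4GALT2*, a galactosyltransferase, and *CCDC24* had 2.34 (FDR = 0.129) in the authors' deposited table. Those next in order of p had smaller fold changes. They were 1.44 for *ACP1*, a tyrosine phosphatase, and *SH3YL1*, and 1.27 for *SNX5*, an endosomal sorting protein, and *MGME1*, a nuclease of mitochondrial DNA, in the authors' deposited table. The centre of the *SNX5* region lay 7.5 bp from one end and 13.5 bp from the other. *MTRR*, which keeps methionine synthase active, and *FASTKD3*, a mitochondrial RNA-binding protein, had 1.34 in the authors' deposited table, and *FDXACB1* with C15H11orf1 had 1.48.

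Larger fold changes in set 2 came from few places. The largest of any shared region in the authors' deposited table, 7.72 (FDR = 0.562), was at *LRIG1*, a membrane protein that restrains ERBB receptors, and *SLC25A26*, the mitochondrial carrier of S-adenosylmethionine, on chromosome 22. These overlap by 127 bp and held 3 of the 54 set 2 regions, the other two with fold changes of 3.13 and 3.53 in the authors' deposited table. *UBXN4*, of protein degradation at the endoplasmic reticulum, and *LCT*, the intestinal lactase, had 6.64 in the authors' deposited table (FDR = 0.777). For *FKBP10*, a folding factor of collagen, and *NT5C3B* the authors' deposited table gave 3.62 (FDR = 0.774). All 5 regions are 200 bp wide, the smallest width in the table, and none was near the FDR limit.

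Set 1 shared regions with the smallest p were wide, at 600 to 1300 bp, with fold changes from 1.47 to 2.54. First by p were *DUSP3*, a phosphatase, and C19H17orf105, whose region on chromosome 19 at 43312701 to 43313700 was 1.72-fold in the authors' deposited table (FDR = 2.14e-10). The centre lay in the 1378 bp between the genes. *TUBB4B*, a beta-tubulin, and *FAM166A* on chromosome 11 (106015101 to 106016400) followed at 1.76 in the authors' deposited table (FDR = 3.14e-09). A region of the same width, 1300 bp, lies at *SPINT1*, a membrane-bound inhibitor of serine proteases made by epithelia, and *PPP1R14D*, an inhibitor of protein phosphatase 1, on chromosome 10 at 66694101 to 66695400. It was 1.84-fold in the authors' deposited table (FDR = 1.83e-07). The median width was 200 bp over all 559 shared regions, and 400 bp over those at an FDR under 0.05.

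The next in order of p paired genes of unlike function. *SLC25A22*, a mitochondrial glutamate carrier, and *CEND1*, of neuronal differentiation, had 2.06 in the authors' deposited table (FDR = 2.11e-05). *CILP2*, a cartilage matrix protein, and *YJEFN3* had 1.96, and *PFN1*, the actin-binding protein profilin, with *ENO3*, the muscle enolase, had 1.495 in the authors' deposited table. *SMPD5*, a sphingomyelinase, and *SPATC1*, a sperm centrosome protein, had 1.47, the lowest of the 10 in the authors' deposited table. *ENTPD6*, which hydrolyses nucleotides, with LOC108637352 had 2.54 in the authors' deposited table. *GOLGA2*, a scaffold of the Golgi, and *DNM1*, the neuronal dynamin of endocytosis, had 1.85 in the authors' deposited table (FDR = 5.15e-05). In these 10 regions the centre lay between 93.5 and 869.5 bp from the nearest end.

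The 5 largest set 1 fold changes among regions at an FDR under 0.05 lay between 4.09 and 7.60 in the authors' deposited table, and the top 3 had an FDR of 0.0259 to 0.0492. *NRG4*, a ligand of the receptor ERBB4, and *TMEM266* overlap on chromosome 21 and had a 200 bp region (30926701 to 30926900), for which the authors' deposited table gave 7.60-fold (FDR = 0.0492). *EMC6*, of a complex that inserts membrane proteins, and *TAX1BP3* had 6.62 in the authors' deposited table (FDR = 0.0408). At *PCNA*, the sliding clamp of DNA replication, and *TMEM230* the fold by the authors' deposited table was 6.30 (FDR = 0.0259). *CENPP*, a centromere protein, and *NOL8*, a nucleolar protein, stand 29 bp apart. They had 4.73 in the authors' deposited table (FDR = 0.00305) on the *CENPP* side and 1.94 (FDR = 0.033) on the other. *USP28*, a deubiquitinase, and *HTR3B*, a serotonin receptor subunit, had 4.09 in the authors' deposited table (FDR = 0.00367).

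Of 10 textbook head to head pairs with both genes in the table, 2 held a listed region, beside 13.6% of all close pairs. *COL4A1* and *COL4A2*, the main collagen chains of basement membranes, had 2 set 1 regions on chromosome 12, both inside the same gene. The region nearer the 110 bp gap (1301701 to 1301900) was 2.31-fold (FDR = 0.0204) and the farther one (1300901 to 1301600) 1.95-fold (FDR = 0.0291) in the authors' deposited table. For *FEN1*, a flap nuclease of DNA replication and repair, and *TMEM258* the authors' deposited table gave 2.83 in set 1, not past the threshold (FDR = 0.121). A pair without a listed region may be equally open, or equally closed, in lactation and in the dry period, or may have missed the listing.

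Ribosomal protein genes had the highest shares with a shared region among the 14 gene lists. Over all genes in a close pair, 945 of 6087 (15.5%) had one. Of 33 cytosolic ribosomal protein genes in a close pair, 12 (36.4%) had one. Their 17 regions were all in set 1, as were 90.3% of all shared regions. The median of the 17 was 2.34-fold in the authors' deposited table, beside 1.93 over all shared regions. An FDR of 0.05 was passed by 31.1% of all set 1 shared regions and by 3 of these 17. They were those of *RPL4* with the kinetochore gene *ZWILCH* (2.10-fold in the authors' deposited table, FDR = 0.00122), *RPS2* with the complex I subunit *NDUFB10* (2.005, FDR = 0.017), and *RPL28* with *TMEM238* (2.05, FDR = 0.0228). In all 3 the centre lay inside the partner gene. It was 655.5, 447.5 and 573.5 bp from the end of the ribosomal protein gene, in the same order. Ribosomal protein genes have many near-identical pseudogene copies, and the treatment of reads that match several copies is not given in the sources used.

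Mitochondrial genes had shared regions in both sets. Set 1 held 11 of the 15 regions at mitochondrial ribosome genes and 4 of the 6 at respiratory chain genes, beside 90.3% of all shared regions. In set 2, 0 regions of either list passed an FDR of 0.05, and the split was not tested. Of 46 mitochondrial ribosome genes in a close pair, 13 (28.3%) had a shared region, 10 in set 1 and 3 in set 2. An FDR of 0.05 was passed by 28.8% of all shared regions and by 2 of the 15 at these genes. These were *MRPS34* with the nuclease subunit *EME2* (2.37 in the authors' deposited table, FDR = 0.000293) and *MRPL55* with C7H1orf35 (3.20, FDR = 0.0414), both in set 1. *MRPL2*, beside the ubiquitin ligase scaffold *CUL7*, had 1.465 in set 1 in the authors' deposited table (FDR = 0.0532). In set 2 *MRPL18* shares its region with *TCP1*, a subunit of the cytosolic chaperonin and head to head with it in humans (1.49 in the authors' deposited table, FDR = 0.433). Of 46 respiratory chain genes, 5 (10.9%) had one, 3 in set 1 and 2 in set 2. The set 2 ones were both subunits of ATP synthase beside a head to head partner known from humans. *ATP5J* with *GABPA*, an ETS transcription factor, had 1.325 (FDR = 0.447) in the authors' deposited table, and *ATP5C1* with *KIN*, a DNA-binding protein, had 1.33 (FDR = 0.474). In set 1 *NDUFB10* shares the region of *RPS2* given above.

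**Figure D5:**
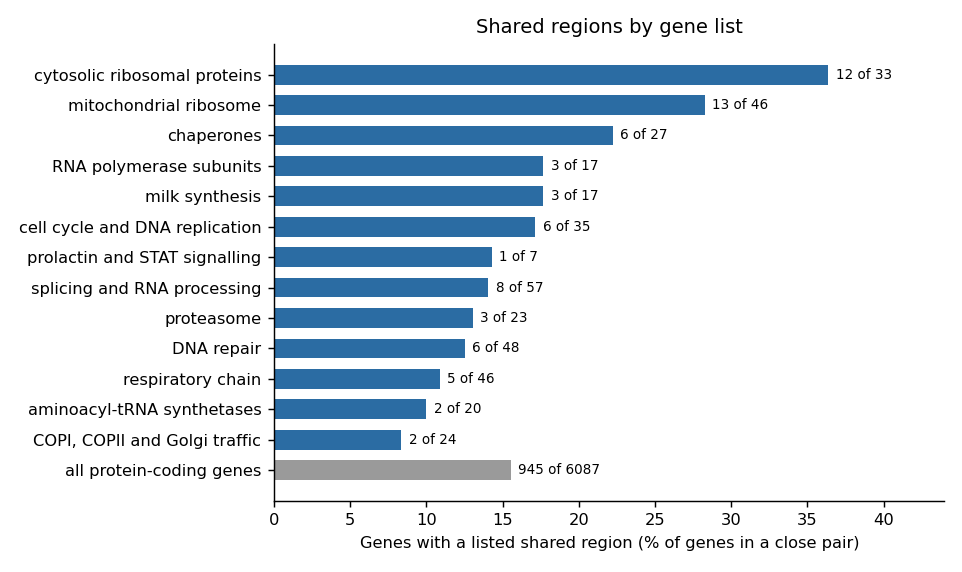
Share of the genes of each list that have a listed shared region, in percent of the list's genes that lie in a close pair, with both counts beside each bar; the grey bar is all protein-coding genes (945 of 6087). Cytosolic ribosomal proteins (12 of 33) and the mitochondrial ribosome (13 of 46) are the highest; the lists were not tested.

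The members of the cell cycle and DNA repair lists that had a shared region had it in set 1, as did 90.3% of all shared regions. *SKA2* and *PRR11*, described above in set 2, are not among the list genes counted here. Other genes of these functions outside the lists were not counted either. For the cell cycle list they were 6 of 35 genes in a close pair (17.1%). An FDR under 0.05 was found for 31.1% of all set 1 shared regions and for 3 of the 8 of this list. Besides *PCNA* these were *CDT1*, which licenses replication origins, with *APRT* (1.78 in the authors' deposited table, FDR = 0.00182), and *E2F1*, the transcription factor of S phase entry, with *NECAB3* (2.94, FDR = 0.0462). *CDC25C*, the phosphatase of mitotic entry, had 2.05 in the authors' deposited table, with an FDR just above the threshold (0.0524). For DNA repair 6 of 48 genes (12.5%) had one. Of their 7 regions, 2 passed, beside 31.1% of all set 1 shared regions. Both lay at *XPC*, the damage sensor of nucleotide excision repair, with *TMEM43*, and had 2.74 (FDR = 0.0111) and 2.52 (FDR = 0.032) in the authors' deposited table. *FANCD2*, of crosslink repair, with *EMC3* had 1.41 (FDR = 0.152), and *NTHL1*, a glycosylase of oxidised bases, with *TSC2* had 1.97 (FDR = 0.22) in the authors' deposited table.

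For the transcription and splicing machinery the counts lay close to the share over all genes. RNA polymerase subunits had 3 of 17 genes (17.6%), all in set 1, as were 90.3% of all shared regions. *POLR2I* with *OVOL3* (1.65 in the authors' deposited table, FDR = 0.000168) and *POLR2L* with the tetraspanin *CD151* (2.22, FDR = 0.0418) passed the threshold, and *POLR2A*, the largest subunit, with *SLC35G6* did not (1.51, FDR = 0.248). So 2 of these 3 regions passed, beside 31.1% of all set 1 shared regions. Splicing and RNA processing had 8 of 57 genes (14.04%), 6 in set 1 and 2 in set 2, with none past the FDR. *SF3B1*, a core splicing factor, with *COQ10B* was in set 2 at 1.765 (FDR = 0.34), while *CPSF4* with *PTCD1* (1.95), *PTBP1* with *PLPPR3* (3.22) and *SRSF2* with *METTL23* (2.55) were in set 1 in the authors' deposited table.

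Genes of protein quality control and traffic were described by 4 lists with few regions each. Chaperones had 6 of 27 genes (22.2%), 4 in set 1 and 2 in set 2, and 2 of their 7 regions passed an FDR of 0.05, beside 28.8% of all shared regions. *HSP90AB1*, a constitutive HSP90, with *SLC35B2* had 1.91 (FDR = 0.00983) in the authors' deposited table, and *BAG6* with *PRRC2A* had 1.37 (FDR = 0.021). *HSF1*, the heat shock transcription factor, had set 1 regions at both of its ends, 1.76 beside *BOP1* (FDR = 0.0752) and 2.203 beside *DGAT1* (FDR = 0.257) in the authors' deposited table. The proteasome had 3 of 23 genes (13.0%), *PSMC5*, *PSME3* and *PSMD8*, with fold changes of 1.47, 1.75 and 1.76 in the authors' deposited table. Of these 3 regions 0 passed an FDR of 0.05, beside 28.8% of all shared regions. Aminoacyl-tRNA synthetases had 2 of 20 (10.0%), *VARS* at 1.52 (FDR = 0.0757) and *MARS* at 1.71 (FDR = 0.143) in the authors' deposited table. For COPI, COPII and Golgi traffic it was 2 of 24 (8.33%), *GOLGA2* and *COPG1*, a coat subunit, the second at 2.34 in the authors' deposited table (FDR = 0.265).

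Milk synthesis genes had a shared region about as often as genes in general. Of 56 genes of milk synthesis 17 lay in a close pair, and 3 of these had a shared region (17.6%, beside 15.5% over all genes in a close pair). The 3 regions were all in set 1, as were 90.3% of all shared regions. Of the 3, 0 passed an FDR of 0.05, beside 31.1% of all set 1 shared regions. *SLC3A2*, the heavy chain of amino acid transporters, had 1.40 (FDR = 0.0792) in the authors' deposited table. *SREBF1*, the transcription factor of lipid synthesis, with *RAI1* had 2.88 (FDR = 0.238), and *DGAT1*, which completes milk triglycerides, had 2.203 beside *HSF1* in the authors' deposited table. Of the 7 genes of the prolactin and STAT list in a close pair, 1 had a shared region (14.3%). It was *STAT2*, of interferon signalling, at 2.84 (FDR = 0.248) in the authors' deposited table. Among markers of mammary and other cell types, 1 luminal marker had a shared region, the tight junction gene *CLDN4* with WBSCR27, in set 1 at 1.35 in the authors' deposited table (FDR = 0.233). Markers of basal cells, fibroblasts, endothelium, immune cells and adipocytes had 0, with 3 of them in a close pair at all. The histone pattern matched 0 symbols of the gene table. Genes known only by a LOC identifier cannot match such a pattern, so histone genes among them would not be counted.

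Shared regions were unevenly spread over the chromosomes, as were close pairs. Chromosome 19 held 65 and chromosome 25 held 52, at 61 of 342 and 49 of 248 close pairs. Chromosome 23 had the highest share of pairs with a region, 36 of 180, and chromosome 6 the lowest, 3 of 56 (5.36%). On chromosome 23 from 18 to 19 Mb, a stretch outside the naming rule, lay 18 shared regions at genes without a symbol. All were in set 1, as were 90.3% of all shared regions. Their fold changes were 1.25 to 3.72 (median 2.39) in the authors' deposited table. Of the 18, 13 had an FDR under 0.05, beside 31.1% of all set 1 shared regions, a difference that was not tested. The 18 include the region of 3 such genes at 18979201 to 18980100, and the authors' deposited table gave 2.51-fold (FDR = 4.09e-05).

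In all 11 regions had ends of 3 genes within reach, 10 of them in set 1. Those with a symbol and the smallest p were *NAV1*, LOC108637801 and the nuclear import factor *IPO9* (1.61 in the authors' deposited table, FDR = 0.0196), and *RHBDL1*, the ubiquitin ligase *STUB1* and LOC106503559 (2.21, FDR = 0.0206). *RNASE6*, a ribonuclease of host defence, with 2 unnamed genes had 1.65 (FDR = 0.0757) in the authors' deposited table, and 3 unnamed genes on chromosome 3 had 1.4 (FDR = 0.087). An end of a tRNA gene lay within 1000 bp of 1 of the 559 shared regions, and an end of a long noncoding RNA gene of 6.

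The limit of 1000 bp cut a continuous range. With the second gene's end 900 to 1000 bp away there were 82 regions, all in set 1, with a median fold change of 2.07 and 25 at an FDR under 0.05 in the authors' deposited table. Just outside, at 1000 to 1100 bp, there were 102 regions, 97 in set 1 and 5 in set 2, with a median of 1.92 and 33 at that FDR. The nearest inside were 2 regions at 999.5 bp, with 1.80 and 1.83 in the authors' deposited table, neither past an FDR of 0.05. The nearest outside were 2 regions at 1000.5 bp, with 1.60 and 2.24 in the authors' deposited table, the second past it (FDR = 0.000928).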

How the data were processed

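Per the labels' protocols, chromatin of mammary epithelial cells was tagged by Nextera Tn5 and read on BGISEQ-500. Bowtie2 2.2.5 and MACS2 are named in the submitters' processing notes, with no role given. The genome build, the differential caller and its thresholds, the shift of cuts and the handling of duplicates were not given in these sources. The authors deposited 1 table of regions with a linear fold change (a ratio), p-values, FDR (q-values), a score that was not used, and the other columns, position and width in bp. It holds no value per library, so the depth is unknown and no test over libraries, left-out library or replicate block could be made.

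Coordinates are the authors', with 1 added to each start so that positions count from 1. Gene ends came from a RefSeq table of ARS1.2, whose coordinates are not printed. As a check of the build, regions lay within 1000 bp of their own chromosome's gene ends more often than of any other chromosome's, and more often than when moved by 100000 bp, on 29 of 29 chromosomes. Distances, gaps and counts were computed with Python 3.11.15, pandas 2.3.3, NumPy 2.4.6 and SciPy 1.17.1, and the matching was tested on simulated data. No genome or promoter sequence was used, so motifs and sequences are not analysed here, nor is gene orientation, for which a share of pairs facing away from each other had been planned.

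Regions, gene pairs and the 14 gene lists were described by counts, medians and intervals, with no test. Members and lists were chosen with earlier results of these data known. Named were the 10 regions of each set with the smallest p, the 5 with the largest fold change (set 1 at FDR under 0.05; set 2 among all, as only 4 passed), the 5 with the most genes, textbook pairs, and up to 4 genes per list by p. A region that this rule names is not reported here.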

Additional observations from a re-analysis of the deposited data

How the results depend on the processing

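The set 1 share of shared regions at an FDR under 0.05 was 97.5%, beside 97.1% at single ends and 91.5% of all regions at that FDR. For shared regions it lay between 95% and 98.2% under every alternative but 1: it was 90.3% over every listed region. The count of 161 such regions became 56 at a distance of 500 bp, 413 at 2000 bp, 65 at an FDR under 0.01 and 80 at a p under 1e-05, and it was 224, 130 and 156 by the region's edge, with symbols only and with 1 region per set of genes. The median fold change of set 1 was 1.97 in the main setting, 2.09 at 2000 bp and 1.90 to 2.01 under the other alternatives. That of set 2 was 2.05 at 2000 bp, a distance that takes in regions farther from the ends, and 1.34 to 1.41 under the other alternatives. The median width was 400 bp at an FDR under 0.05 and 200 bp otherwise. The share of pairs facing away from each other could not be computed without strand. No paired analysis was possible because the table holds no value per library, and leaving out a replicate could not be done for the same reason. Reads per region are unknown, so how depth limits the calls is unknown. The median at partly overlapping genes in set 2 was 1.57 without *LRIG1* and *SLC25A26*, an alternative chosen after seeing the data.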
